A study of Drosophila melanogaster with 12 samples.

Results

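Acetylcholine is the main fast excitatory transmitter of the fly central nervous system. Choline acetyltransferase makes it from choline and acetyl-CoA, a vesicular transporter loads it into synaptic vesicles, and acetylcholinesterase splits it in the synaptic cleft, after which choline is taken up again. It acts on nicotinic receptors, which are ligand-gated cation channels built from alpha and beta subunits around a pore, and on muscarinic receptors, which signal through G proteins. The 10 genes described here were taken by name from a table of 15104 genes: Cha, VAChT and Ace for synthesis, vesicle loading and breakdown, the nicotinic alpha subunit genes nAcRalpha-96Aa, nAcRalpha-96Ab, nAcRalpha-30D and nAcRalpha-34E, the nicotinic beta subunit genes nAcRbeta-64B and nAcRbeta-96A, and the muscarinic receptor gene mAcR-60C. Each name was found once, and each gene reached 1 FPKM (a count of fragments set against the length of the transcript and the size of the library) in at least 1 group, as 11181 genes of the table did.

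The flies were adults of the 2202U background that carried 1 copy each of a Gal4 driver and UAS-GFP-L10A, a GFP-tagged ribosomal protein. The driver was Elav-Gal4 for neurons, repo-Gal4 for glia and takeout-Gal4 for the fat body, so every group, Inputs included, expressed the tag in 1 of the 3 cell types. Lysates of 1000 heads gave the Input libraries, and ribosomes pulled from them with a GFP antibody gave the IP libraries, with 2 biological replicates in each of the 6 groups, each a pool of 4 technical replicates. The deposited table holds 1 FPKM per gene and group for both replicates together, so the levels carry no standard deviation and no n, the depth is unknown, and differences between Input and IP could not be tested. For each pair of IPs the authors' deposited table gives a q-value, and a gene was called there at q under 0.05. Elsewhere a difference of at least 2-fold on the log2(FPKM + 1) scale was counted, which understates the change of genes with low FPKM. A lower level can mean fewer cells of a type or less RNA in each, and these cannot be told apart in lysates of whole heads. Where 3 values are given for the Inputs or the IPs, they are in the order neuron, glia, fat body.

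Markers of the labelled cell types were checked first. Of 7 tested glia markers 6 were at least 2-fold higher in the glia IP than in its Input, against 18.6% of all tested genes. Of 8 fat body markers 7 were so in the fat body IP, against 27.3% of all tested genes. The fat body marker to had more FPKM in the glia IP (55.8, Input 9.32) than in the fat body IP (44.4, Input 12.5). Of 11 neuron markers the neuron IP had 0 higher and 8 lower than its Input, against 18.9% and 13% of all tested genes. Their summed level was 763 FPKM against 1749, although that sum was 118 FPKM for the glia IP and 220.0 for the fat body IP. None of these markers was at 0 in any group. Whether the columns are on a common scale is not known. Over the 5599 genes that reached 5 FPKM in all 6 groups, the median log2 IP/Input was 0.40, 0.49 and 0.82 in the 3 cell types. Scaling the columns to a common median shifted these medians by -0.49, -0.44 and -0.76, and scaling to equal totals without ribosomal protein genes by -0.54, -0.71 and -1.41. Log2 values below are on the deposited scale unless said otherwise.

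Cha (FBgn0000303), the gene of choline acetyltransferase, was as high in the neuron IP as in the neuron lysate and low in the other IPs. The Inputs held 42.8, 21.9 and 26.5 FPKM and the IPs 43.7, 3.75 and 5.76 FPKM. The neuron IP stood far above both other IPs and beside its own Input. Its log2 IP/Input was 0.03 for neurons, which turned to -0.48 under median scaling and -0.53 under total scaling, -2.27 for glia and -2.03 for the fat body. In the authors' deposited table Cha differed between neuron and glia IP at q = 1.59e-07 (log2 3.23) and between neuron and fat body IP at q = 6.18e-06 (log2 2.73), with no call between glia and fat body IP (q = 0.0832).

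VAChT (FBgn0015323), the gene of the vesicular acetylcholine transporter, followed Cha in the lysates but not in the neuron IP. The Inputs held 27.9, 15.2 and 17.7 FPKM and the IPs 5.84, 1.73 and 3.00 FPKM. Every IP was thus below every Input, with log2 IP/Input of -2.08, -2.57 and -2.22. The authors' deposited table made no call between neuron and glia IP (q = 0.0754, log2 1.32) or between neuron and fat body IP (q = 0.398, log2 0.77). Between glia and fat body IP it gave q = 0.00357 with a log2 of -0.55, a direction that vanished under total scaling (log2 0.0021).

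The ratio of 2 genes within 1 column does not depend on how columns are scaled. The ratio of Cha to VAChT was 1.53, 1.44 and 1.499 over the Inputs, and 7.48, 2.17 and 1.92 over the IPs. The lysates were therefore close to one another in this ratio and the neuron IP stood apart. In a later annotation of the fly genome VAChT lies inside the Cha gene on the same strand, an arrangement known as the cholinergic locus, and its single annotated transcript has 7098 bases against a longest of 4011 for Cha. How the quantification divided reads over any shared exon is not given in the sources used here, so the split between these genes is uncertain.

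Ace (FBgn0000024), the gene of acetylcholinesterase, had the reverse order of the IPs. The Inputs held 19.7, 15.0 and 18.3 FPKM and the IPs 3.98, 19.2 and 6.12 FPKM. The glia IP was on the level of the Inputs while both other IPs lay below all 3. Log2 IP/Input was -2.05 for neurons and -1.44 for the fat body, and 0.34 for glia, which turned to -0.11 under median scaling and -0.38 under total scaling. In the authors' deposited table Ace was lower in the neuron than in the glia IP (q = 0.000303, log2 -2.02) and higher in the glia than in the fat body IP (q given as 0, log2 1.51), with no call between neuron and fat body IP (q = 0.471). Relative to Cha in the same column, Ace stood at 0.460, 0.687 and 0.689 over the Inputs and at 0.0911, 5.12 and 1.06 over the IPs.

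**Figure D1:**
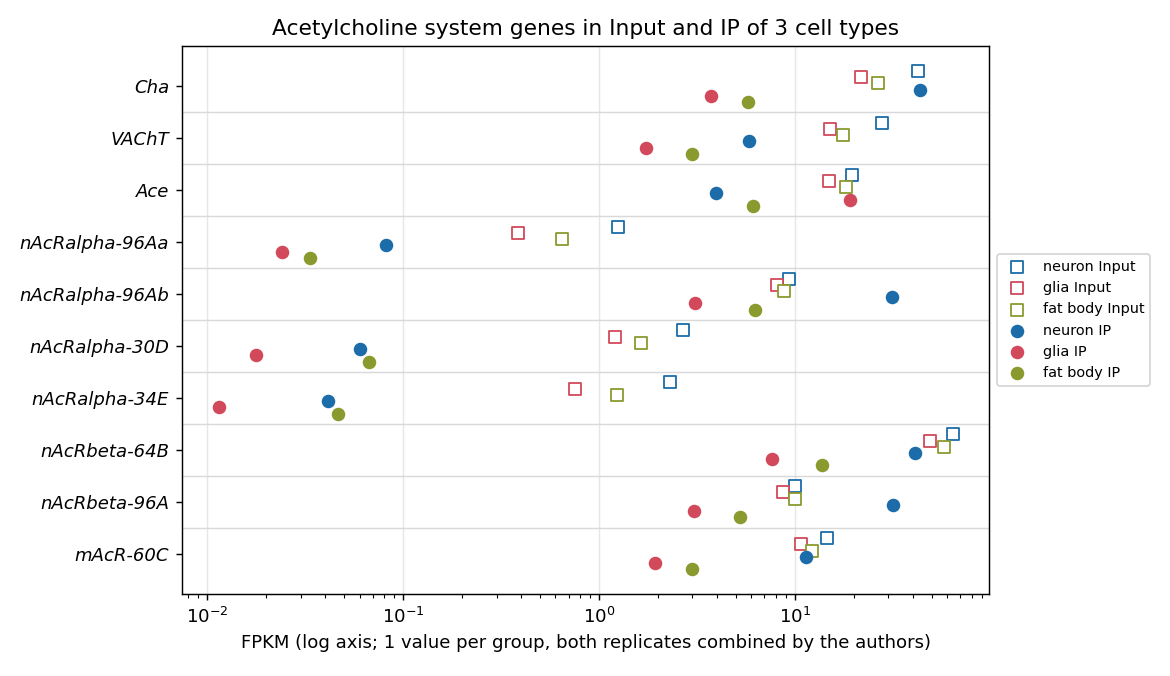
FPKM of the 10 genes on a log axis, 1 point per group, with open squares for Inputs and filled circles for IPs, coloured by cell type and with no error bars because each group has a single deposited value. Cha, nAcRalpha-96Ab and nAcRbeta-96A have the neuron IP at the right (43.7, 31.3 and 31.9 FPKM), Ace has the glia IP (19.2 FPKM) among the Inputs, and 3 alpha subunit genes have every IP under 0.1 FPKM.

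Among the nicotinic receptors, nAcRalpha-96Ab (FBgn0000039) and nAcRbeta-96A (FBgn0004118) were the members whose level in the neuron IP exceeded that of the lysate by at least 2-fold. nAcRalpha-96Ab, an alpha subunit gene named nAChRalpha2 in later annotations, had Input levels of 9.39, 8.08 and 8.86 FPKM and IP levels of 31.3, 3.09 and 6.23. nAcRbeta-96A, a beta subunit gene named nAChRbeta2 later, had Input levels of 10.1, 8.73 and 10.1 FPKM and IP levels of 31.9, 3.05 and 5.28. In both genes the neuron IP was above all Inputs and the other IPs were below all Inputs. Log2 IP/Input for neurons was 1.64 and 1.57, against -1.15 and -1.26 for glia and -0.45 and -0.82 for the fat body.

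These 2 genes also resembled each other most among the 45 pairs of members. The distance between their log2(FPKM + 1) profiles over the 6 groups, each centred on its mean, was 0.29. It was nearly the same, 0.30, for nAcRalpha-30D with nAcRalpha-34E, whose low FPKM bounds that distance. Within every column nAcRalpha-96Ab stood at 0.880 to 1.18 times nAcRbeta-96A. The authors' deposited table called both higher in the neuron than in the glia IP, at q = 1.74e-09 for nAcRalpha-96Ab (log2 2.98) and q = 3.74e-10 for nAcRbeta-96A (log2 3.02). Against the fat body IP the deposited q-values of the authors were 1.72e-05 (log2 2.16) and 8.22e-07 (log2 2.39).

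nAcRbeta-64B (FBgn0000038), a beta subunit gene named nAChRbeta1 later, had the highest FPKM of the 10 genes in each Input. It stood there at 64.03, 48.8 and 58.0 FPKM, above 88.7% to 89.9% of the tested genes. The IPs held 41.3, 7.67 and 13.7 FPKM, all below the Inputs, with log2 IP/Input of -0.62, -2.52 and -2.00. The value for neurons was -1.13 under median and -1.19 under total scaling, past 2-fold. The neuron IP was called higher than the glia IP (q = 4.63e-07, log2 2.29) and the fat body IP (q = 0.000993, log2 1.53) in the authors' deposited table. Per FPKM of nAcRbeta-64B in the same column, nAcRbeta-96A amounted to 0.157, 0.179 and 0.174 over the Inputs and to 0.772, 0.398 and 0.385 over the IPs. The lead of nAcRbeta-64B over nAcRbeta-96A was thus smaller in each IP than in each Input.

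The 3 remaining alpha subunit genes were low in the lysates and close to 0 in every IP. nAcRalpha-30D (FBgn0032151), named nAChRalpha6 later and known as the target of the insecticide spinosad, had Input levels of 2.70, 1.20 and 1.63 FPKM and IP levels of 0.0600, 0.0177 and 0.0668. nAcRalpha-34E (FBgn0028875), named nAChRalpha5 later, had Input levels of 2.31, 0.751 and 1.24 FPKM and IP levels of 0.0413, 0.0114 and 0.0463. nAcRalpha-96Aa (FBgn0000036), named nAChRalpha1 later, had Input levels of 1.26, 0.384 and 0.645 FPKM and IP levels of 0.0818, 0.0240 and 0.0336. For all 3 genes every IP lay below every Input.

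On FPKM without the added 1, the neuron IP held 2.22% of the Input level of nAcRalpha-30D, 1.79% of nAcRalpha-34E and 6.51% of nAcRalpha-96Aa. The shares were 1.47%, 1.52% and 6.25% for glia and 4.09%, 3.74% and 5.201% for the fat body. With the added 1, log2 IP/Input for neurons was -1.80, -1.67 and -1.06, values that the low Input levels bound. The authors' deposited table made no call on these genes between any IPs, with q from 0.131 to 1. In a later annotation NimC4, another gene on the same strand, lies inside nAcRalpha-34E.

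mAcR-60C (FBgn0000037), the gene of the A-type muscarinic receptor, had Input levels of 14.6, 10.7 and 12.2 FPKM and IP levels of 11.4, 1.93 and 2.99. The neuron IP lay within the range of the Inputs and the other IPs lay below it. Log2 IP/Input was -0.33, -2.00 and -1.73. In the authors' deposited table the neuron IP was higher than the glia IP (q = 2.07e-05, log2 2.08) and the fat body IP (q = 0.00125, log2 1.64). In a later annotation CG13578 overlaps part of this gene on the opposite strand, and whether the counting used strand is not given in the sources used here.

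**Figure D2:**
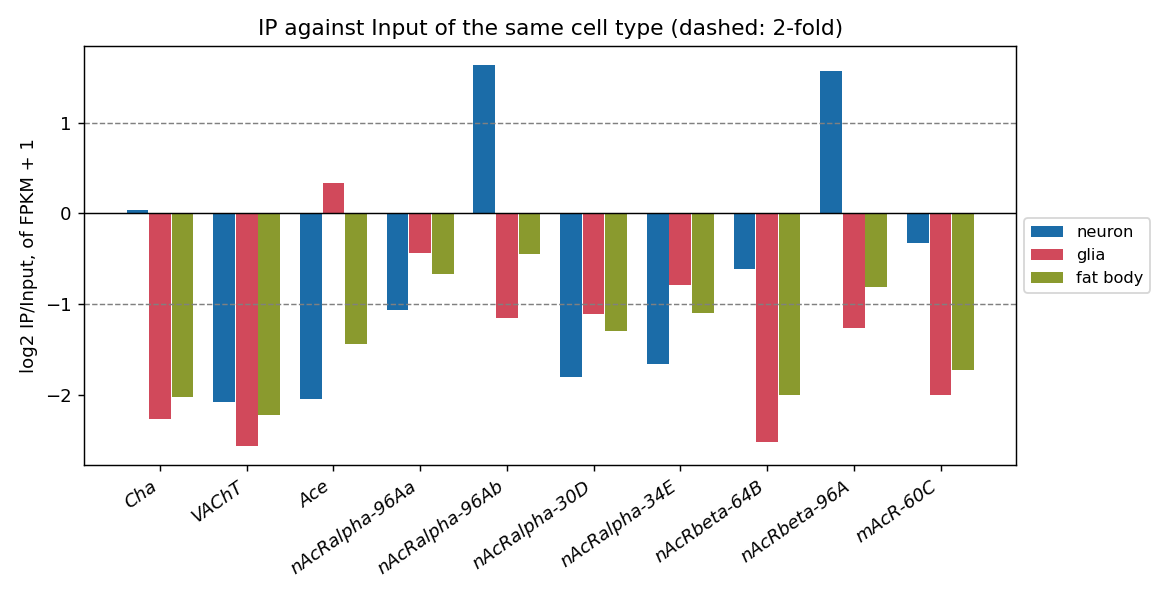
Log2 ratio of IP to Input of the same cell type, on FPKM + 1 as deposited, for each gene, with 1 bar per cell type and dashed lines at 2-fold. In neurons nAcRalpha-96Ab and nAcRbeta-96A reach 1.64 and 1.57 while VAChT and Ace lie at -2.08 and -2.05, and in glia Ace is the single bar above 0 (0.34).

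To ask which transcripts tagged ribosomes held more or less than the lysate did, each IP was set against its own Input. In the neuron comparison 2 members were at least 2-fold higher, nAcRalpha-96Ab and nAcRbeta-96A, and 18.9% of all tested genes were. A further 5 members were lower (VAChT, Ace, nAcRalpha-30D, nAcRalpha-34E and nAcRalpha-96Aa), against 13% of all tested genes, and the median over the 10 members was -0.84 beside 0.00 over all tested genes. For glia 0 members were higher and 7 were lower, where 18.6% and 19.6% of all tested genes were, and the members' median was -1.21 beside 0.04. For the fat body 0 were higher and 7 lower, where 27.3% and 10.1% of all genes were, with a median of -1.37 beside 0.09. Over all genes the share of higher calls among all calls hung on the scale. It was 59.2% for neurons as deposited, 25.3% under median scaling and 22.0% under total scaling. For glia it was 48.7%, 24.6% and 16.3%, and for the fat body 73.0%, 31.2% and 8.81%. The members' 2 higher calls in neurons were made under both scalings, where 7.73% (median) and 7.05% (total) of all tested genes were higher. Lower calls of members numbered 6 in neurons, 8 in glia and 9 in the fat body under either scaling. Of all tested genes, 22.8%, 30.2% and 24.2% were lower with columns at a common median, and 25.1%, 36.6% and 43.2% with equal totals.

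The comparison between IPs asks how ribosome-bound transcripts differ between cell types, and here the authors' q-values apply. Between neuron and glia IP 5 of the 10 members were higher in neurons, namely Cha, nAcRalpha-96Ab, nAcRbeta-64B, nAcRbeta-96A and mAcR-60C, where 15.5% of all tested genes were. Ace alone was lower in neurons, where 15.3% of genes were. Between neuron and fat body IP the members higher in neurons were again these 5 and 0 were lower, against 9.32% and 11.9% of all genes. The 2 comparisons share the neuron IP libraries. Neither count moved under median or total scaling, which change directions alone and not the q-values.

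Between glia and fat body IP, Ace was higher in glia and 5 members were lower, VAChT, nAcRalpha-96Ab, nAcRbeta-64B, nAcRbeta-96A and mAcR-60C, against 12.9% and 31.6% of all genes. Under total scaling the directions of VAChT, nAcRbeta-96A and mAcR-60C turned, to log2 values of 0.0021, 0.0048 and 0.10. Ace kept its direction under both scalings. Over all genes the higher calls were 29.0% of calls as deposited and 49.4% under total scaling.

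Subtracting the log2 IP/Input of 1 cell type from that of another sets each IP against its own lysate, and this too has no test. Neuron minus glia was at least 1 on the log2 scale for 5 members, with 2.84 for nAcRbeta-96A, 2.79 for nAcRalpha-96Ab, 2.30 for Cha, 1.90 for nAcRbeta-64B and 1.67 for mAcR-60C, while 13.4% of all genes were that high. Ace was at -2.39, and 16.1% of all genes were that low. VAChT stood at 0.49, and nAcRalpha-30D, nAcRalpha-34E and nAcRalpha-96Aa at -0.69, -0.88 and -0.63. Neuron minus fat body was at least 1 for the 5 genes named (1.38 to 2.39), where 9.7% of all genes were. No member was as low as -1, where 18.3% of genes were, and Ace stood at -0.62, which turned to 0.16 under total scaling. Glia minus fat body passed 1 for Ace (1.77), where 9.9% of all genes did, and reached -1 for no member, where 15.2% of genes did.

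As deposited, all neuron and photoreceptor markers were higher in the neuron IP than in the other IPs, as were the 5 members called so. Ace was lower in the neuron than in the glia IP (log2 -2.02), and the remaining members had no call against either IP. Of 11 neuron markers 7 were called higher in the neuron than in the glia IP and 4 than in the fat body IP, and 10 and 11 of them were at least 2-fold lower in the glia and fat body IPs than in the Inputs. The summed level of this list was 1749, 965 and 1158 FPKM over the Inputs and 763, 118 and 220.0 over the IPs. Photoreceptors are neurons of the eye, and all 5 of their markers (ninaE, Arr2, Arr1, norpA and trp) were called higher in the neuron than in the glia IP (median log2 2.60) and 4 of 5 than in the fat body IP (1.89). Their summed level was 12577, 12522 and 15521 FPKM over the Inputs and 30550.2, 4193 and 8222 over the IPs, so that it was higher in the neuron IP than in its lysate, as for nAcRalpha-96Ab and nAcRbeta-96A. None of them was at 0 in any group. The part of these marker levels in the members' results was not tested.

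The Inputs differed in the members too, though by less. All 10 members were lower in the glia than in the neuron Input, by a median log2 of -0.56, where 74.5% of all genes were lower and the median was -0.23. None was lower by 2-fold on this scale, as 0.984% of all genes were. All 10 were also lower in the fat body than in the neuron Input (median -0.35 beside -0.13, with 70% of all genes lower and 0.519% by 2-fold), and in the glia than in the fat body Input (median -0.25 beside -0.08, with 67.1% of all genes lower and 0.331% by 2-fold). As a percentage of the neuron Input FPKM, the glia Input held 51.2% of Cha, 54.4% of VAChT and 30.5% of nAcRalpha-96Aa, but 86.1% of nAcRalpha-96Ab and 86.8% of nAcRbeta-96A. The last 2 turned to slightly positive log2 differences under both scalings (0.02 to 0.04). Between fat body and neuron Input, nAcRbeta-96A was close to a tie as deposited (10.1 FPKM in each), and it, Ace, nAcRalpha-96Ab and nAcRbeta-64B turned positive under both scalings, with log2 values from 0.0046 to 0.17. All 11 neuron markers were also lower in the glia and fat body Inputs than in the neuron Input, with medians of -0.98 and -0.63.

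Transcript length ran alongside the IP/Input values. The longest annotated transcript of each gene, from a later annotation, was 2387 bases for nAcRalpha-96Ab, 2460 for nAcRbeta-64B, 4011 for Cha, 4018 for nAcRbeta-96A and 5425 for mAcR-60C. It was 7098 for VAChT, 7583 for nAcRalpha-30D, 7980 for Ace, 9129 for nAcRalpha-34E and 11027 for nAcRalpha-96Aa. The 5 longest of the 10 by this measure were thus the 5 that were at least 2-fold lower in the neuron IP as deposited. By the shortest annotated transcript mAcR-60C, at 5370 bases, was longer than most of these 5 genes. That length was 3068 bases for nAcRalpha-30D, 3262 for Ace, 3826 for nAcRalpha-96Aa and 4396 for nAcRalpha-34E, while VAChT stayed at 7098. The other members were shorter by this measure too, at 2824 for Cha, 2319 for nAcRalpha-96Ab, 1892 for nAcRbeta-96A and 818 for nAcRbeta-64B. Under median and total scaling nAcRbeta-64B was also past 2-fold lower in the neuron IP (-1.13 and -1.19). Across the 11173 tested genes with a length, whose values are not independent of one another, Spearman's rho between length and log2 IP/Input was -0.31, -0.28 and -0.39 in the 3 cell types.

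These genes were split into 4 length classes of like size. The longest class (3153 bases and up, with 8 of the 10 members) had median log2 values of -0.54, -0.58 and -0.56, and 32.3% of it was at least 2-fold lower in the neuron IP against 8.01% of the class below. Over the 10 members rho was -0.68, 0.65 and 0.15. In glia the order ran the other way, with Ace high and nAcRbeta-64B low, and the low FPKM of the 3 longest alpha subunit genes bounds their log2 values. The part of length in the members' values was not tested.

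**Figure D3:**
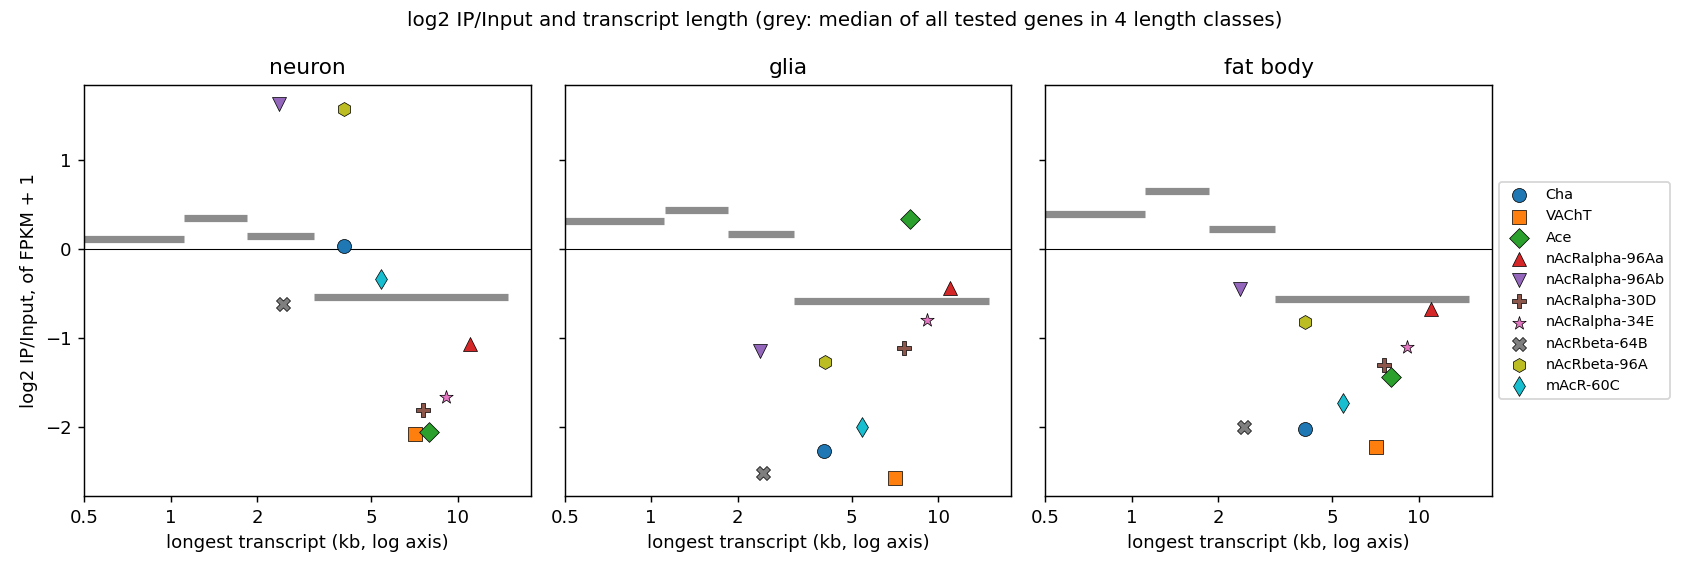
Log2 IP/Input on FPKM + 1 against the longest annotated transcript in kilobases, on a log axis, for the 10 genes in each cell type. Grey bars are the medians of all tested genes in 4 length classes of like size, drawn from 0.5 to 15 kb, and in neurons the 5 longest genes lie between -2.08 and -1.06.

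The nicotinic subunit genes took different shares of their summed FPKM in the lysates and in the IPs. The sum covers the 6 members and 4 further subunit genes (nAcRalpha-7E, gfA, nAcRalpha-80B and nAcRbeta-21C), and came to 113, 86.3 and 102 FPKM over the Inputs and 109.5, 19.2 and 41.4 FPKM over the IPs. nAcRbeta-64B made up 56.5% to 56.7% of it in all 3 Inputs and 37.7%, 40.0% and 33.1% of it in the IPs. nAcRalpha-96Ab and nAcRbeta-96A made up 8.32% and 8.92% of the neuron Input and 28.6% and 29.1% of the neuron IP. They held 16.1% and 15.9% of the glia IP and 15.0% and 12.7% of the fat body IP. nAcRalpha-30D, nAcRalpha-34E and nAcRalpha-96Aa together with nAcRalpha-7E each held under 0.2% in every IP.

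**Figure D4:**
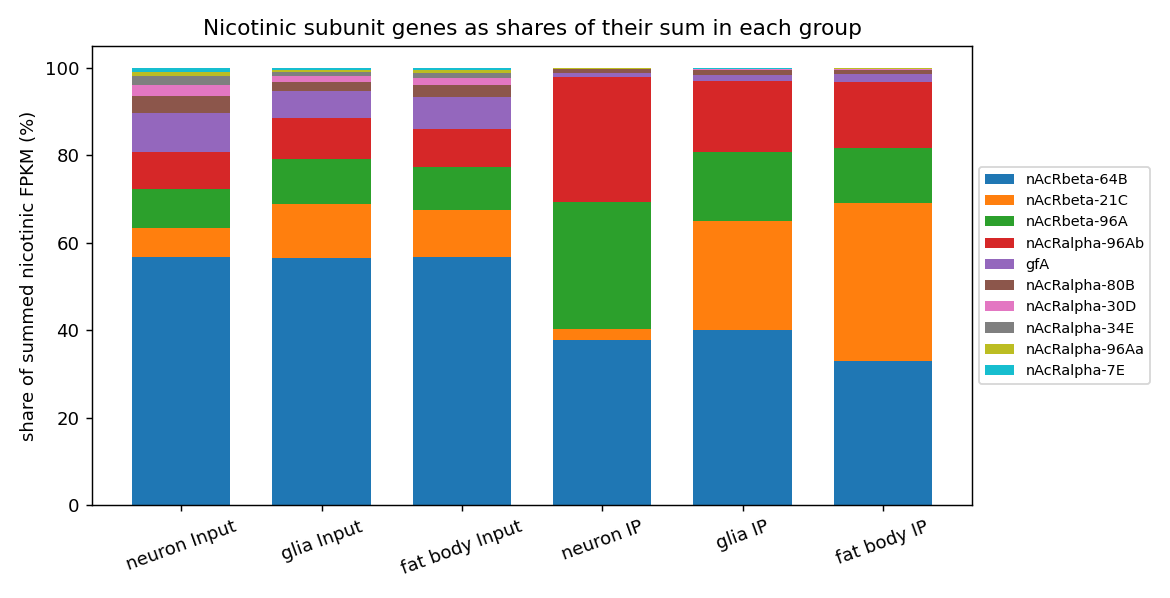
Share of the summed FPKM of 10 nicotinic subunit genes held by each, in percent, for the 6 groups. nAcRbeta-64B holds 56.5% to 56.7% of each Input, nAcRalpha-96Ab and nAcRbeta-96A together fill most of the rest of the neuron IP, and nAcRbeta-21C holds 24.9% of the glia IP and 36.0% of the fat body IP.

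Other genes of the cholinergic system were taken from a list of 10, of which 8 reached 1 FPKM. nAcRalpha-7E and CG12796, the alpha3 subunit and C-type muscarinic receptor genes, stayed under it in every group. CG7708, the high-affinity choline transporter gene, had Input levels of 20.7, 12.4 and 15.7 FPKM and IP levels of 14.0, 1.38 and 2.62. The neuron IP was the highest IP, and the authors' deposited table called it higher than the glia IP (q = 7.13e-08) and the fat body IP (q = 9.4e-05). CG7918, the B-type muscarinic receptor gene, had Input levels of 5.11, 3.82 and 4.58 FPKM and IP levels of 6.18, 1.05 and 1.95, with q = 1.33e-05 and 0.00521 for neuron against glia and fat body IP in the authors' deposited table. RIC-3, whose relatives in worms and mammals help to assemble nicotinic receptors, had Input levels of 44.0, 38.9 and 44.8 FPKM and IP levels of 33.8, 10.6 and 20.9.

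gfA and nAcRalpha-80B, the alpha7 and alpha4 subunit genes, were likewise lower in every IP than in every Input. gfA had 10.3, 5.49 and 7.49 FPKM in the Inputs and 0.897, 0.276 and 0.740 in the IPs, and nAcRalpha-80B had 4.32, 1.76 and 2.79 in the Inputs and 1.06, 0.219 and 0.401 in the IPs. nAcRbeta-21C, the beta3 subunit gene, had another order. Its Input levels were 7.58, 10.8 and 11.1 FPKM and its IP levels 2.78, 4.78 and 14.9, so the fat body IP was its highest group in FPKM as deposited, although its log2 IP/Input there of 0.39 turned to -0.35 under median and -0.98 under total scaling, and the authors' deposited table called it lower in the neuron (q = 0.00034) and glia IP (q = 4.23e-08) than there. A later annotation places this gene inside Ets21C on the opposite strand. Whether exons of the 2 overlap was not examined. Reads of any such stretch cannot be told apart if the counting did not use strand.

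qvr, which encodes the Ly6 protein known as sleepless, had 53.0, 29.5 and 38.6 FPKM in the Inputs and 18.02, 5.73 and 11.7 in the IPs. bou, a Ly6 family gene of septate junctions, had 18.6, 14.0 and 13.2 FPKM in the Inputs and 20.2, 66.1 and 52.4 in the IPs, and lies inside ogre on the opposite strand. Against the Inputs, 0 of the 8 tested genes were higher by 2-fold and 4 lower for neurons (median -0.86), 1 higher and 7 lower for glia (-1.51), and 1 higher and 5 lower for the fat body (-1.25). The shares of all tested genes were 18.9% and 13%, 18.6% and 19.6%, and 27.3% and 10.1%. By the authors' q, 5 were higher and 1 lower in the neuron than in the glia IP, 2 higher and 2 lower in the neuron than in the fat body IP, and 0 higher and 6 lower in the glia than in the fat body IP. Of all tested genes, 15.5% and 15.3%, 9.32% and 11.9%, and 12.9% and 31.6% were called so.

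Receptors and enzymes of other transmitters were set beside the members by counts. Against the neuron Input, 2 of 15 tested GABA and glutamate receptor genes were higher in the IP and 6 lower by at least 2-fold (median -0.58), and 11 were called higher and 1 lower in the neuron than in the glia IP. Of 12 genes for synthesis and transport of other transmitters, 3 were higher and 2 lower by the same measure (median 0.63), and 8 were called higher and 0 lower than in the glia IP. Of all tested genes 18.9% were higher and 13% lower against the neuron Input, and 15.5% and 15.3% were called against the glia IP. The genes named next were chosen after their values were seen. Lcch3 and GABA-B-R2, a GABA-gated channel subunit and a metabotropic GABA receptor gene, had log2 IP/Input of 1.39 and 1.34 in neurons, while Rdl, the main GABA-gated channel gene, had -2.87. Gad1, which makes GABA, had 0.61 and VGlut, which loads glutamate into vesicles, -1.90. These lists thus held genes on both sides, as the members did, and no difference between the lists was tested.

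The genes most like Cha, VAChT and Ace over the 6 groups were sought among 4221 others that reached 5 FPKM in any group and go by a gene name, not by a CG or CR identifier alone. Nearest to Cha by distance of the centred log2(FPKM + 1) profiles were unc-104 (0.31), a kinesin that carries synaptic vesicle precursors, Cbp53E (0.40), a calcium-binding protein of neurons, and miple (0.40), a heparin-binding growth factor. unc-104 stood at 139.9, 90.9 and 107 FPKM in the Inputs and at 147, 14.6 and 21.7 in the IPs. Nearest to VAChT were RSG7 (0.16), a regulator of G-protein signalling, CkIalpha (0.21), casein kinase I alpha, and Drep-2 (0.30). Nearest to Ace were grh (0.28), a transcription factor of epithelia and neuroblasts, Dscam (0.35), a cell adhesion gene with many splice forms, and Ptp10D (0.36), a receptor tyrosine phosphatase. Among the 9 other members, Cha was nearest to mAcR-60C (1.00), VAChT to nAcRbeta-64B (1.08) and Ace to nAcRalpha-34E (1.59). Each had closer genes outside the members, but 4221 genes were searched there against 9 within, which favours that outcome beforehand. The added 1 flattens the low profile of nAcRalpha-34E, whose lowest group was the glia IP (0.0114 FPKM). Ace had its highest IP level in that group (19.2 FPKM).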

How the data were processed

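PolyA RNA of Input and IP was sequenced as paired-end reads in 12 samples. Per the submitters' processing notes, TopHat2 2.0.6, Cufflinks 2.0.2, Cuffdiff 2.0.2 and the build BDGP5 were used. The authors deposited FPKM values, 1 per gene and group with both replicates combined, and 3 columns of q-values for the pairs of IPs. How replicates were combined, columns scaled and strand treated is not given in the sources used here. The table holds no counts, so depth and precision are unknown, and no interval or test of Input against IP was possible.

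Python 3.11.15 with numpy 2.4.6, pandas 2.3.3, scipy 1.17.1 and matplotlib 3.10.9 was used on all 15104 genes. Genes that reached 1 FPKM in any group counted as tested, and log2 ratios are of FPKM plus 1. A gene was called at the authors' q under 0.05 or, without a q, from 2-fold upwards if not listed at 0. The 2-fold calling was tested on simulated data with large changes in genes of at least 5 FPKM. That test did not cover the calls by q or changes in genes with lower FPKM. Gene lengths, overlaps and later symbols came from a BDGP6 annotation, matched by gene ID or, failing that, by name (99.9% of tested genes). Coordinates of that annotation served for overlaps alone, and none are printed. All members were named, with a list of further cholinergic genes and the 3 most like genes of Cha, VAChT and Ace. The members and lists were chosen with earlier results of these data known. Alternatives were another pseudocount, 2 scalings of the columns, 2 filters and stricter thresholds.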

Additional observations from a re-analysis of the deposited data

Results flagged for a closer look

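Cell types differed in direction for 2 members, each by at least 2-fold in both. nAcRalpha-96Ab was higher in IP than Input for neurons (31.3 against 9.39 FPKM) and lower for glia (3.09 against 8.08 FPKM), a difference of 2.79 on the log2 scale. nAcRbeta-96A went from 10.1 to 31.9 FPKM in neurons and from 8.73 to 3.05 in glia, a difference of 2.84. Of all tested genes 18.9% were at least 2-fold higher in the neuron IP, and 19.6% were lower in the glia IP, than in the own Input. The share of all genes that did both was not counted, so whether 2 of 10 members is unusual is not known. Neither difference was tested, since each group has a single deposited value. With groups of 1 value no sample could be set against the others of its group.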

How the results depend on the processing

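Counts and medians of the members in 12 comparisons were recomputed under each alternative, and those not named here stayed within 1.5 times or on their side of 2-fold. In the neuron IP against its Input the median log2 passed 2-fold, at -1.43 with a pseudocount of 0.1, -1.17 under median scaling and -1.26 under total scaling. Lower members numbered 2 there among genes with at least 5 FPKM, which 3 members do not reach, and higher members 1 at 3-fold. At 3-fold, 4 members were lower in the glia and 4 in the fat body IP than in the Inputs, and 3 were higher in the difference of IP/Input between neurons and fat body. That median was 1.41 under total scaling and 1.40 with at least 5 FPKM. With a pseudocount of 0.1, 3 members were lower in the glia than in the neuron Input and 2 were lower in the difference of IP/Input between neurons and glia. Between glia and fat body IP, total scaling gave 4 members higher and 2 lower, with VAChT at 0.0021, nAcRbeta-96A at 0.0048 and mAcR-60C at 0.10, and q under 0.01 left 3 lower. Apart from the steps that scaling, filters and thresholds set by construction, the cause was not tested. No paired analysis was possible because the table holds no values per replicate, and leaving out replicates was not run for the same reason. Unknown depth limits the genes under 1 FPKM most.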
